A study of Mus musculus with 24 samples.

Results

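Matrix remodelling enzymes and their inhibitors were followed in the inguinal white fat pad (IWAT) of mice, which lies under the skin of the groin. Genes were chosen by symbol. They are the matrix metalloproteinases (Mmp), their tissue inhibitors (Timp), the Adam and Adamts proteases with the Adamts-like proteins, and the lysyl oxidases Lox and Loxl1 to Loxl4. The rule found 58 genes among the 16821 in the deposited tables. All mice were male C57BL6/J, received their diets from 5 weeks of age for 12 weeks, and were killed at 4 months after a 4 h fast. The diets were elemental MR (elemental amino acids, 0.17% methionine, where MR is methionine restriction), elemental control (elemental amino acids, 0.86% methionine), oxidized casein MR (casein whose methionine was destroyed by oxidation and then added back to 0.17%) and casein control (intact casein, 0.86% methionine). Each diet had 6 sequenced mice of the 8 per group that the labels give, 24 libraries in all. The study asked how restriction built on oxidized casein compares with restriction built on elemental amino acids. In the casein comparison, casein oxidation and methionine level change together. The series design text speaks of liver, but the title, the sample source and the extraction protocol name IWAT, and adipocyte markers averaged 10.70 to 12.19 log2 CPM (reads scaled to library size) in every library, above the hepatocyte markers, at 2.33 to 10.17.

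The extracellular matrix of fat is a network of collagens, proteoglycans and microfibrils around each adipocyte. Mmp and Adamts proteases cut these proteins, Adam proteases mostly shed the outer parts of membrane proteins, and Timps bind and block the proteases at their active site. Lysyl oxidases oxidize lysines of collagen and elastin, from which the cross-links of fibres form, so the balance of these genes bears on how far the matrix can give way as a fat pad grows or shrinks.

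The libraries differed in other tissue that the dissected pieces held. The pad encloses a lymph node, and the mean log2 CPM of B cell genes ranged from 4.57 to 6.27 in 15 libraries, while in 9 it ranged from -0.80 to 2.49. Lymph node transcripts were present in 5 elemental MR, 4 elemental control, 2 oxidized casein MR and 4 casein control libraries. Adipose progenitor and fibroblast markers, a cell class that makes matrix, averaged a median of 5.83 log2 CPM in the 15 libraries with lymph node and 6.38 in the 9 without. Skeletal muscle markers reached 9.32 log2 CPM in elemental MR replicate 2 and 10.49 in elemental control replicate 2, against at most 6.60 in the oxidized casein MR libraries and 5.45 in casein controls. Hepatocyte markers reached 10.17 log2 CPM in elemental control replicate 6. Their highest values were 7.44 on elemental MR, 7.47 on oxidized casein MR and 6.83 on the casein control. Leaving out that elemental control library was among the alternatives. Library totals ran from 7468336 to 19868913 reads. Results are therefore given also with lymph node presence as a term in the model. In bulk tissue, fewer cells of a type and less RNA per cell cannot be told apart.

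The 4 Timps together gave 44.3% of the summed CPM of the set. The libraries read the 3′ end of each transcript, so CPM can be set side by side between genes without scaling to length. Timp2, at a mean of 308 CPM over the 24 mice, Timp3, at 250.2, and Timp4, at 133, took 3 of the 4 highest places, and the aggrecanase Adamts5 took the other at 136 CPM. Those 4 genes gave 52.9% of the summed CPM of all 58. Timp1 was far lower, at 0.951 CPM.

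Among the proteases, Mmp14, the membrane-type enzyme that activates the gelatinase Mmp2, followed at 77.8 CPM, then Adam15 at 72.3, Mmp19 at 47.2, Adamts2 at 42.7, Adam17 at 39.2 and Mmp2 at 31.9. Lox stood at 59.2 CPM and Loxl1 at 35.5. In all, 26 genes averaged at least 10 CPM, 15 lay between 1 and 10, and 17 lay below 1. Mmp13, the only collagenase of the set in the table, was lowest at 0.272 CPM. The low-count filter kept 49 of the 58 for testing, and the 9 below it were Mmp13, Mmp25, Adam1a, Adam4, Adam5, Adamts8, Adamts16, Adamts17 and Adamtsl2.

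The summed CPM of all 58 genes had a lowest, median and highest value of 913, 1116 and 1514 on elemental MR, against 1205, 1408 and 2355 on the elemental control. On casein the sums were 1227, 1633 and 2015 with oxidized casein MR, against 1267, 1654 and 2616 with the casein control. The ranges overlapped on both protein sources, and the elemental MR mice held the lowest sums. The 4 Timps made up a median of 42.8% of the sum on elemental MR, 43.4% on the elemental control, 45.6% on oxidized casein MR and 45.3% on the casein control.

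**Figure D1:**
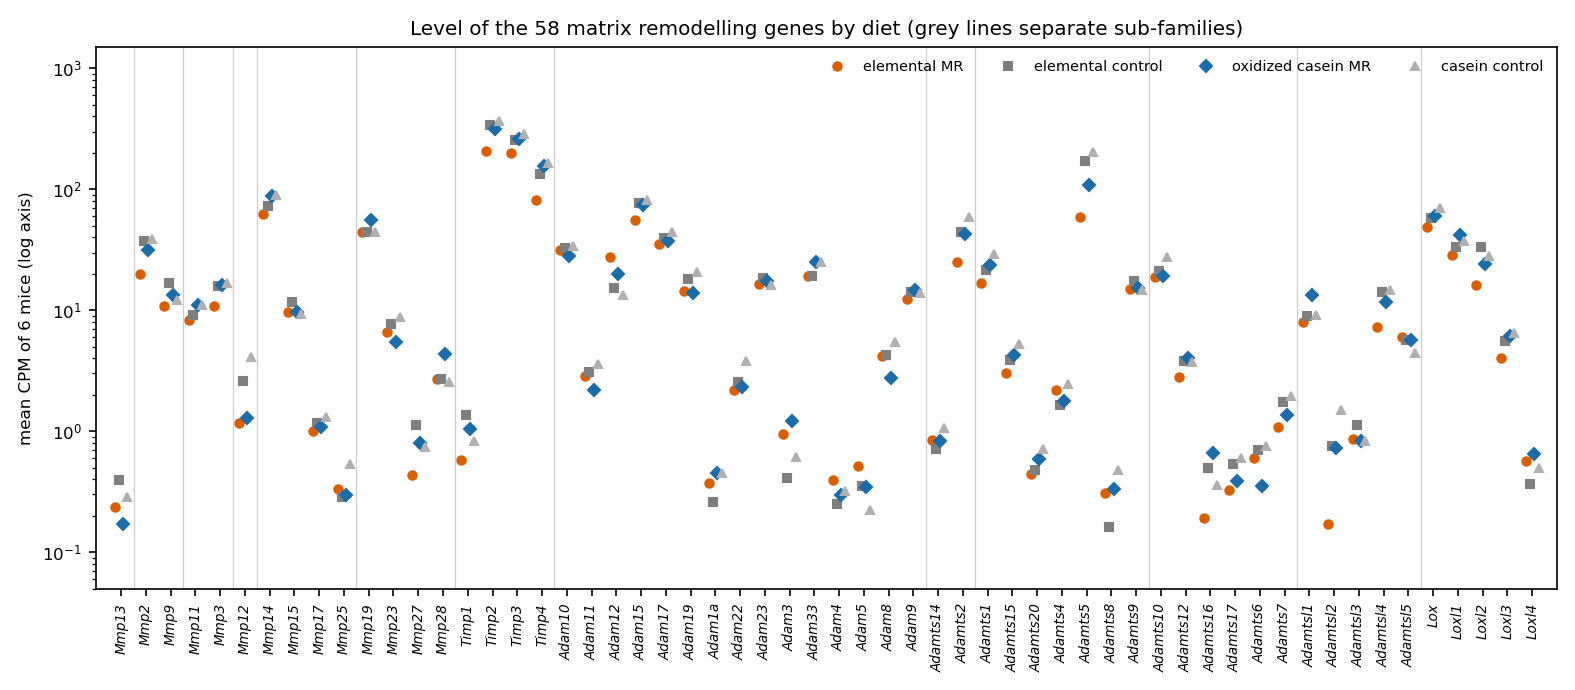
Mean level of each of the 58 genes in the 4 diets (CPM, log axis, mean of 6 mice per diet), ordered by sub-family with grey lines between them. Timp2, Timp3 and Timp4 lie near or above 100 CPM, and the elemental MR point of Adamts5, at 59.5 CPM, lies below its other diets.

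Most of these genes did not pass the test for restriction by edgeR with diet alone in the model and all 24 libraries. In that fit, on elemental amino acids Adam12 rose and no other gene of the set passed the test. On casein Adam12 rose and Adamts10 fell. Averaged over both protein sources, Adam12 rose while Adamts10, Adamts5 and Adam19 fell.

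In counts, 1 of 49 tested genes passed an adjusted p of 0.05 for MR on elemental amino acids, beside 0.244% of all 15176 genes (0.217% higher). For MR on casein it was 2 of 49, beside 3.82% of all genes (3.35% higher and 0.461% lower), and for the average 4 of 49, beside 6.99% (5.23% higher and 1.76% lower). At an unadjusted p under 0.05 there were 12 of 49 (24.5%) on elemental amino acids, of which 11 were lower, where 10.2% of all genes had such a p and 5.08% were lower. On casein there were 8 of 49 (16.3%), with 6 lower, beside 16.1% of all genes and 6.4% lower. The average shares its libraries with both and had 14 (28.6%), with 13 lower, beside 19.1% of all genes and 8.74% lower. When lymph node presence was a term, 14 of 49 had such a p on elemental amino acids (28.6%, 12 of them lower), beside 12.8% of all genes and 6.5% lower. On casein with that term there were 20 of 49 (40.8%, 18 of them lower), beside 19.6% of all genes and 10.1% lower.

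The log2 fold change was below 0 for 42 of 49 genes on elemental amino acids, beside 53.9% of all genes, with a median of -0.23, where the median of all genes tested was -0.02. On casein it was below 0 for 32 of 49, beside 58.1% of all genes, with a median of -0.14, and the median of all genes was -0.06. In the model with lymph node presence it was below 0 for 39 of 49 on elemental amino acids, beside 57.8% of all genes, and for 41 of 49 on casein, beside 57.6%. Adipose progenitor and fibroblast markers shifted alongside, with a median log2 fold change of -0.76 on elemental amino acids (all 10 markers below 0) and -0.22 on casein (9 of 10 below 0). Among the 10, Col1a1, Col3a1, Dcn, Lum and Mfap5 encode matrix proteins and are also among the other matrix genes described below. The markers are thus no separate reading of cell number, and their part in these shifts was not tested. Adipocyte markers had medians of 0.01 and 0.17.

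**Figure D2:**
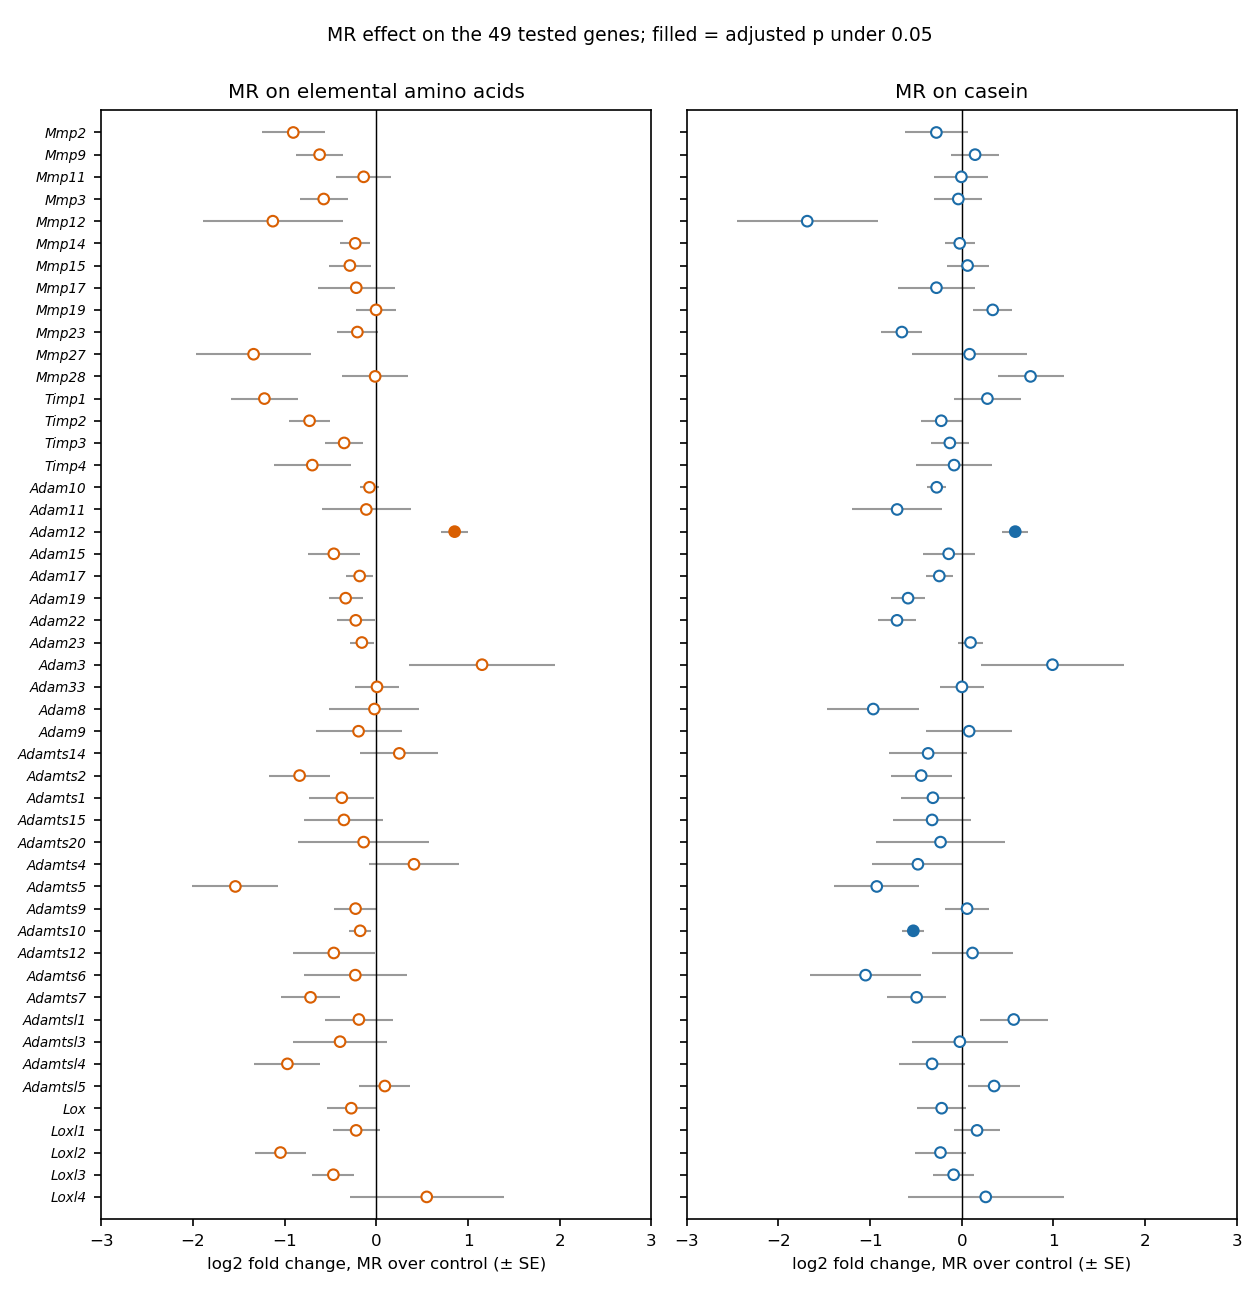
Log2 fold change of MR over control for each of the 49 tested genes on elemental amino acids (left) and casein (right), with bars of 1 SE and filled points for an edgeR adjusted p under 0.05. Adam12 is filled and right of 0 in both panels, Adamts10 is filled only on casein, and 42 and 32 of the 49 points lie left of 0.

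Adam12 (ENSMUSG00000054555, chromosome 7, 133883199 to 134232146, minus strand, GRCm38) is a membrane-anchored metalloprotease first known from fusing muscle cells and also found in developing fat. By edgeR with diet alone in the model and all 24 libraries, it was the member that passed on both protein sources. With lymph node presence as a term, Adamts5 and Loxl2 also passed on both. Adam12 stood at 23.8, 26.6 and 32.6 CPM (lowest, median and highest of 6 mice) on elemental MR, against 12.4, 14.9 and 18.8 CPM on the elemental control. All 6 elemental MR mice lay above all 6 controls, a complete separation upward that 0.573% of all tested genes showed. The rise was 1.81-fold (log2 fold change 0.85, SE 0.14, edgeR adjusted p = 0.0106).

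On casein Adam12 had 18.1, 19.98 and 21.9 CPM with oxidized casein MR, against 9.01, 13.4 and 18.7 CPM with the casein control. Here the ranges touched, and 5 of 6 restricted mice lay above every control. The rise was 1.499-fold (log2 fold change 0.58, SE 0.14, edgeR adjusted p = 0.0207). Averaged over the sources it was 1.65-fold (log2 fold change 0.72, SE 0.10, edgeR adjusted p = 0.000158).

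Adam12 did not pass for lymph node presence, at a log2 difference of -0.18 (SE 0.11). In libraries with lymph node it had 23.8 to 32.6 CPM on elemental MR and 12.4 to 18.8 CPM on the elemental control, and in those without it had 28.2 CPM in the single elemental MR mouse and 14.0 to 17.1 CPM in the controls. With lymph node presence in the model the averaged rise was 0.71 (SE 0.10, edgeR adjusted p = 2.29e-05), and it was 0.76 (SE 0.13) and 0.65 (SE 0.15) within the libraries with and without lymph node. The adjusted p of the averaged rise lay between 2.22e-09 and 0.0458 over all alternatives. Without elemental MR 2 and elemental control 2, the muscle-rich libraries, the log2 fold change on elemental amino acids was 0.80 and its adjusted p reached 0.05, which ends that call. It was also lost within libraries with lymph node (0.86 (SE 0.16), adjusted p = 0.0725) and without it (0.92 (SE 0.24), 0.387). The casein call was lost without casein control 1 (adjusted p = 0.0511), without casein control 6 (0.0632) and in a fit of the 12 casein libraries alone (0.071), at log2 fold changes of 0.57, 0.49 and 0.58. Within libraries with and without lymph node the casein effect was 0.66 (SE 0.21) and 0.38 (SE 0.18) and did not pass.

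Adam19, a protease that sheds neuregulins, fell in the average (1.38-fold lower, log2 fold change -0.46, SE 0.13, edgeR adjusted p = 0.0322). It stood at 10.9, 13.1 and 20.4 CPM on elemental MR, against 15.2, 18.3 and 20.9 CPM on the elemental control. On oxidized casein MR it had 10.7, 12.9 and 19.4 CPM, against 12.5, 23.2 and 25.1 CPM with the casein control. Both pairs of ranges overlapped. Adam19 was higher in libraries with lymph node than in those without, by a log2 difference of 0.51 (SE 0.10), and the casein groups differ in how many such libraries they hold. With lymph node presence in the model the averaged change was -0.42 (SE 0.09, edgeR adjusted p = 0.00304), and over all alternatives its adjusted p ran from 0.00136 to 0.454. The call held in 14 of the 24 fits that leave out 1 library. It was lost, at adjusted p between 0.0507 and 0.0628, without elemental MR 4 or 6, elemental control 4 or 6, oxidized casein MR 1, 2 or 6, or casein control 1, 2 or 6, and without both muscle-rich libraries (0.0503). Within libraries with lymph node the change was -0.42 (SE 0.13) and within those without it -0.30 (SE 0.17), and neither passed (adjusted p = 0.0992 and 0.454). On casein alone Adam19 missed the threshold (log2 fold change -0.59, SE 0.19, edgeR adjusted p = 0.0845) and passed without oxidized casein MR 3 (0.0383) or casein control 5 (0.0206).

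The promoter of Adam19 is shown with its match to the AP-1 motif, the sequence through which Fos and Jun proteins regulate many metalloproteinase genes. RefSeq (GRCm38.p6) lists 3 starts for Adam19, and the 250 bases before the start nearest to the annotated gene held TGAGTCA beginning 131 bases upstream, in capitals below.
Adam19, chr11:46055734-46055983 (plus strand): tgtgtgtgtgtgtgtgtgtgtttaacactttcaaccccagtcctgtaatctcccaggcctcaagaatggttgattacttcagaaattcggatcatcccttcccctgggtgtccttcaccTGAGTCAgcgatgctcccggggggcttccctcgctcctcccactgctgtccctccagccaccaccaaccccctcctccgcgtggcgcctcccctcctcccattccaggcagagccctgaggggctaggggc

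Promoters were taken for 34 of the 58 genes. Some have several starts, which gives 38 promoters. Promoters on chromosome 18, where Lox lies, were left out of the set, with no such step for all listed promoters. Both strands of the 250 bases before each start were searched. The AP-1 letters TGANTCA were in 4 of the 38 (1 each of Adam19, Mmp3, Mmp12 and Mmp13), and in 6.75% of all 32851 listed promoters. The GC box letters GGGCGG were in 22 of 38 (57.9%), and in 32.7% of all, CCAAT in 10 of 38 (26.3%), and in 33.8%, and TATAAA in 4 of 38, and in 12.4%. The CRE letters TGACGTCA were in 0 of 38, and in 1.55% of all. A match describes these letters only.

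Adam22, a relative without protease activity that binds the secreted protein Lgi1 in mouse brain, had 1.64, 2.497 and 2.77 CPM with oxidized casein MR, against 3.07, 4.01 and 4.29 CPM with the casein control. Those ranges did not overlap, with every restricted mouse below every control, which 0.422% of all genes showed. The fold change missed the threshold (log2 fold change -0.71, SE 0.21, edgeR adjusted p = 0.0546), and its adjusted p ran from 0.0215 to 0.551 over the alternatives. It passed with DESeq2 (0.0389) and limma voom (0.0495), and by edgeR without elemental control 1 (0.0482), elemental control 2 (0.0246) or casein control 2 (0.0489). Under elemental diets the groups overlapped, at 1.86, 2.10 and 2.64 CPM on elemental MR and 1.93, 2.32 and 4.06 CPM on the elemental control.

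None of the broad sheddases passed by edgeR with diet alone in the model and all libraries. Adam10, which cuts Notch receptors, had 22.9, 28.7 and 31.5 CPM with oxidized casein MR, against 31.8, 33.8 and 37.9 CPM with the casein control (log2 fold change -0.27, SE 0.10, edgeR adjusted p = 0.169). Its ranges did not overlap. With Adam22, that made 2 of 49 genes (4.08%) wholly lower on oxidized casein MR, beside 0.422% of all genes. Adam17, which releases tumour necrosis factor, had 27.4, 32.8 and 43.6 CPM on elemental MR and 32.5, 37.4 and 53.6 CPM on the elemental control (log2 fold change -0.18, SE 0.15, edgeR adjusted p = 0.78). Adam15 had 34.3, 52.1 and 91.6 CPM on elemental MR and 48.0, 63.2 and 134 CPM on the elemental control (log2 fold change -0.46, SE 0.29, edgeR adjusted p = 0.631). The exons of Adam17, with 11689 reads over all libraries, overlap those of Iah1, with 15132, on the other strand, and whether reads were assigned by strand is not given in the sources used here.

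Of the 12 tested Adam genes, 1 rose and none fell on elemental amino acids, 1 rose and none fell on casein, and 1 rose and 1 fell in the average. Adam3, a gene known mainly from sperm, had a positive but imprecise value (log2 fold change 1.15, SE 0.80 on elemental amino acids) at a mean of 0.798 CPM.

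**Figure D3:**
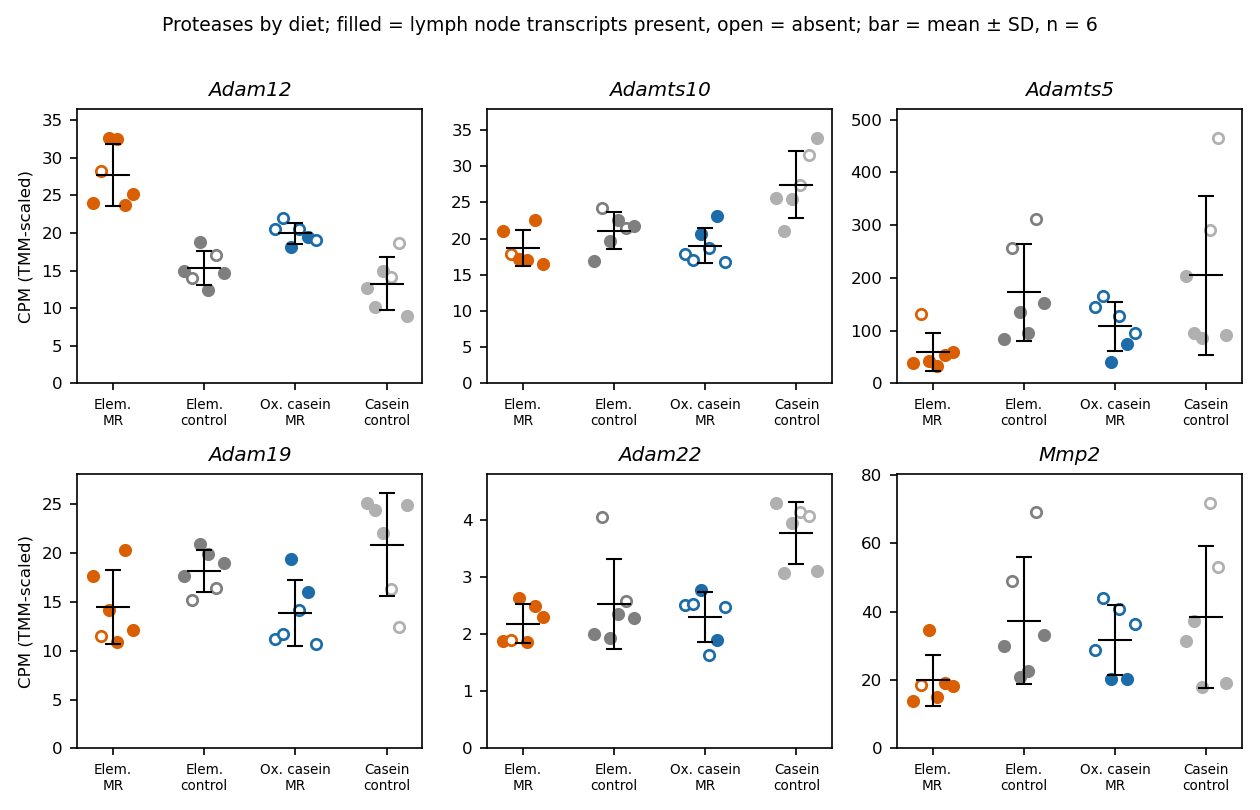
Level of 6 proteases in each mouse by diet (CPM, linear axes from 0, bars are mean ± SD of 6 mice), with filled points for libraries with lymph node transcripts and open points for those without. Adam12 on elemental MR lies wholly above its control, while Adamts5 has its highest value of each diet in an open point.

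Among the Adamts proteases the largest averaged shift that passed was that of Adamts5 (ENSMUSG00000022894, chromosome 16, 85856173 to 85901828, minus strand, GRCm38), which cleaves aggrecan and versican. It had 32.3, 47.3 and 132 CPM on elemental MR, against 84.8, 144 and 312 CPM on the elemental control, and 5 of 6 restricted mice lay below every control. On oxidized casein MR it had 40.8, 112 and 165 CPM, against 85.6, 149 and 465 CPM with the casein control, with broad overlap.

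Averaged over the sources, Adamts5 was 2.35-fold lower under MR (log2 fold change -1.23, SE 0.33, edgeR adjusted p = 0.0228). Neither source passed alone by edgeR with diet alone in the model and all 24 libraries (log2 fold change -1.54, SE 0.47, edgeR adjusted p = 0.202 on elemental amino acids, and log2 fold change -0.93, SE 0.46, edgeR adjusted p = 0.328 on casein). DESeq2 called it on elemental amino acids (adjusted p = 0.0283). Within libraries without lymph node alone, its casein log2 fold change was -1.44. Adamts5 was also lower in libraries with lymph node than in those without, with a log2 difference of -1.42 (SE 0.17). Within libraries with lymph node it had 32.3 to 59.4 CPM in 5 elemental MR mice and 84.8 to 152 CPM in 4 elemental controls. On casein it had 40.8 to 73.8 CPM there in only 2 oxidized casein MR mice and 85.6 to 203 CPM in 4 casein controls. In libraries without lymph node it had 132 CPM in the single elemental MR mouse and 257 to 312 CPM on the elemental control, and 95.6 to 165 CPM on oxidized casein MR and 289.9 to 465 CPM on the casein control.

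Once lymph node presence was in the model, Adamts5 fell on both sources, with log2 fold changes of -1.31 (SE 0.23, edgeR adjusted p = 0.00575) on elemental amino acids and -1.27 (SE 0.23, edgeR adjusted p = 0.0017) on casein. Over the alternatives its adjusted p ran from 0.00483 to 0.615 on elemental amino acids, 0.0017 to 0.536 on casein and 2.12e-05 to 0.0502 in the average, where the highest came from leaving out elemental MR 4.

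Adamts10 (ENSMUSG00000024299, chromosome 17, 33524204 to 33553782, plus strand, GRCm38), a secreted protease associated with fibrillin microfibrils, fell on casein. It had 16.8, 18.3 and 23.1 CPM with oxidized casein MR, against 21.0, 26.5 and 33.9 CPM with the casein control, and the ranges overlapped at their edges. The fall was 1.44-fold (log2 fold change -0.53, SE 0.12, edgeR adjusted p = 0.0123). On elemental amino acids it had 16.5, 17.6 and 22.6 CPM on elemental MR, against 16.9, 21.6 and 24.3 CPM on the elemental control (log2 fold change -0.18, SE 0.12, edgeR adjusted p = 0.684). The difference between the effects did not pass (log2 fold change -0.35, SE 0.17, edgeR adjusted p = 0.91), and the averaged fall was 1.28-fold (log2 fold change -0.35, SE 0.09, edgeR adjusted p = 0.0108).

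Adamts10 did not pass for lymph node presence, at a log2 difference of 0.01 (SE 0.09), and its casein change in that model was -0.53 (SE 0.12, edgeR adjusted p = 0.00779), with adjusted p from 0.0032 to 0.677 over the alternatives. The call was kept in all 24 fits that leave out 1 library, and was lost in a fit of the 12 casein libraries alone (adjusted p = 0.0514) and within libraries with lymph node (0.677) and without it (0.053). The averaged call was lost in both strata as well, at -0.20 (SE 0.12) with lymph node (adjusted p = 0.47) and -0.49 (SE 0.14) without it (0.0961).

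Adamts2, which removes the N-propeptide from procollagens, had 17.5, 25.1 and 32.9 CPM on elemental MR, against 30.2, 38.4 and 70.9 CPM on the elemental control (log2 fold change -0.84, SE 0.34, edgeR adjusted p = 0.355). In oxidized casein MR mice it had 26.5, 43.9 and 67.2 CPM, against 24.5, 46.6 and 117 CPM with the casein control (log2 fold change -0.44, SE 0.33, edgeR adjusted p = 0.547). The groups overlapped on both sources. Of the 16 tested Adamts and Adamts-like genes, none passed on elemental amino acids (13 below 0, median log2 fold change -0.29), Adamts10 fell on casein (12 below 0, median -0.32), and Adamts5 and Adamts10 fell in the average.

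No matrix metalloproteinase passed in a comparison of diets by edgeR with diet alone in the model and all 24 libraries. All 12 tested Mmp genes had log2 fold changes below 0 on elemental amino acids (median -0.26), and 7 of 12 did on casein (median -0.01). The gelatinase Mmp2 had 13.8, 18.5 and 34.5 CPM on elemental MR, against 20.8, 31.4 and 69.1 CPM on the elemental control (log2 fold change -0.91, SE 0.35, edgeR adjusted p = 0.325). In elemental MR replicate 3 it reached 34.5 CPM, and the other 5 mice of that diet lay below every control. In oxidized casein MR mice it had 20.3, 32.6 and 44.1 CPM, against 18.0, 34.4 and 71.7 CPM with the casein control (log2 fold change -0.28, SE 0.34, edgeR adjusted p = 0.728).

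Mmp14 stood at 50.3, 59.5 and 87.4 CPM on elemental MR and 52.4, 71.5 and 92.8 CPM on the elemental control (log2 fold change -0.23, SE 0.16, edgeR adjusted p = 0.701), and at 68.5, 87.4 and 106 CPM on oxidized casein MR and 72.2, 79.3 and 118 CPM on the casein control. Mmp19, a soluble protease with broad substrates, had 41.8, 58.2 and 63.6 CPM with oxidized casein MR and 29.7, 37.0 and 80.5 CPM with the casein control (log2 fold change 0.34, SE 0.21, edgeR adjusted p = 0.462). Mmp23, a small membrane-bound relative, had 2.37, 4.92 and 8.73 CPM with oxidized casein MR, against 6.35, 8.91 and 10.3 CPM with the casein control (log2 fold change -0.65, SE 0.22, edgeR adjusted p = 0.112), and within libraries with lymph node alone its direction turned (log2 fold change 0.08).

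Mmp23 passed on casein by edgeR without oxidized casein MR 3 (adjusted p = 0.035) or 5 (0.0324), in a range of 0.0324 to 0.947 over the alternatives. In the average it passed by limma voom (0.045) and by edgeR without the same libraries (0.0348 and 0.036). Exons of Mmp19, with 13883 reads over all libraries, overlap those of Tmem198b, with 1841, on the other strand.

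Mmp12, the macrophage elastase, had 0, 1.06 and 2.81 CPM with oxidized casein MR, against 1.40, 2.20 and 13.1 CPM with the casein control (log2 fold change -1.69, SE 0.77, edgeR adjusted p = 0.276), with 1 control mouse far above the rest. Macrophage markers had median log2 fold changes of -0.51 on elemental amino acids and -0.30 on casein, and their part in the Mmp12 values was not tested. The stromelysin Mmp3 had 7.50, 10.9 and 13.5 CPM on elemental MR, against 9.63, 13.7 and 29.3 CPM on the elemental control (log2 fold change -0.57, SE 0.26, edgeR adjusted p = 0.45).

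All 4 inhibitors had negative log2 fold changes on elemental amino acids, and none passed by edgeR with diet alone and all libraries. Timp2, which blocks gelatinases and also takes part in the activation of Mmp2 by Mmp14, had 166, 208 and 251 CPM on elemental MR, against 209, 286 and 565 CPM on the elemental control. All 6 elemental MR mice lay below the control median, and 3 lay below every control. The log2 fold change was -0.73 (SE 0.23, edgeR adjusted p = 0.21), and without elemental control 1 it passed (0.0496). The averaged change of Timp2 missed the threshold (log2 fold change -0.48, SE 0.16, edgeR adjusted p = 0.0761) and passed with DESeq2 (0.0367) and by edgeR without elemental control 1 (0.0277) or 3 (0.0467). Within libraries without lymph node, which hold a single elemental MR mouse, the averaged log2 fold change was -0.8555. That was the largest fall among the alternatives that do not leave out a single library, and the smallest was -0.275.

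Timp1, an inhibitor known to rise in injured and fibrotic tissue, stood at 0.358, 0.510 and 1.124 CPM on elemental MR, against 0.818, 1.298 and 1.93 CPM on the elemental control. These levels rest on 4 to 13 reads in each elemental MR library and 9 to 38 in each control. In elemental MR replicate 2 it reached 1.124 CPM, within the control range, and the other 5 mice of that diet lay below every control (log2 fold change -1.22, SE 0.36, edgeR adjusted p = 0.179). With oxidized casein MR it had 0.593, 0.872 and 2.07 CPM, against 0.478, 0.826 and 1.27 CPM with the casein control (log2 fold change 0.28, SE 0.36, edgeR adjusted p = 0.742). That direction turned without oxidized casein MR 1 (-0.0163) and within libraries with lymph node (-0.0045). The difference between the restriction effects was the largest of the inhibitors, and it did not pass (log2 fold change 1.501, SE 0.51, edgeR adjusted p = 0.91).

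Timp3, which binds to the matrix and also blocks Adam17 and the aggrecanases, had 149.6, 189.5 and 304 CPM on elemental MR, against 189, 236 and 372 CPM on the elemental control (log2 fold change -0.35, SE 0.20, edgeR adjusted p = 0.6). Timp4, an inhibitor abundant in fat and heart, had 35.2, 78.0 and 167 CPM on elemental MR, against 79.8, 101 and 245 CPM on the elemental control (log2 fold change -0.70, SE 0.42, edgeR adjusted p = 0.624). Both overlapped their controls. On casein the 3 abundant inhibitors had log2 fold changes smaller than their SE, at -0.22 (SE 0.23) for Timp2, -0.13 (SE 0.20) for Timp3 and -0.08 (SE 0.42) for Timp4. Timp3 overlaps exons of Syn3 and Timp4 overlaps exons of Syn2, both on the other strand. Over all libraries Syn2 had 2310 reads and Timp4 had 40761.

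The upstream sequences of 3 inhibitors are shown. They are the bases before the RefSeq start (GRCm38.p6), without bases that GENCODE places in an exon, and capitals mark a GC box (GGGCGG or its reverse complement) or a CCAAT box (or its reverse complement). Timp1 held a CCAAT box beginning 190 bases and a GC box beginning 8 bases before its start. The letters of the 5 searched motifs were not in the stretches shown for Timp3 and Timp4. The window searched for Timp3 also held a GC box, which lies in the 40 bases left out. Timp2, the inhibitor highest in level, is not shown. Its searched window held 1 GC box and 1 CCAAT box, as that of Timp1 did. Whether these letters bear on level was not tested.
Timp1, chrX:20869916-20870165 (plus strand): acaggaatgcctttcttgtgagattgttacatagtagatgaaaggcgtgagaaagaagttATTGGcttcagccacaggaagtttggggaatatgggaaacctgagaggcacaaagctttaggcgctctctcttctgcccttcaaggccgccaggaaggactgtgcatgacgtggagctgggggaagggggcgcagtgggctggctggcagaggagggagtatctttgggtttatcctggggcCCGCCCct
Timp3, chr10:86300162-86300371 (plus strand): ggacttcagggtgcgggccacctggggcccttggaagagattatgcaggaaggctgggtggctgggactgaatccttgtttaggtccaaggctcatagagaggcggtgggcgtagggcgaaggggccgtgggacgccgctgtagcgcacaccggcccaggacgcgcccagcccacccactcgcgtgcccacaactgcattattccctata
Timp4, chr6:115252206-115252455 (minus strand): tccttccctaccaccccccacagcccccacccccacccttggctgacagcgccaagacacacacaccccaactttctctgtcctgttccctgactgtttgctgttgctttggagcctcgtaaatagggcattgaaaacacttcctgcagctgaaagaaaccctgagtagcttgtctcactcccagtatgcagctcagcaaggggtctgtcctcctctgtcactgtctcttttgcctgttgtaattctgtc

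None of the 5 lysyl oxidases passed by edgeR with diet alone in the model and all 24 libraries. Loxl2, which acts on collagen IV of basement membranes, came closest. It had 12.7, 15.0 and 21.7 CPM on elemental MR, against 20.9, 26.5 and 56.8 CPM on the elemental control, and 5 of 6 restricted mice lay below every control. The log2 fold change was -1.05 (SE 0.28, edgeR adjusted p = 0.128). With oxidized casein MR it had 16.7, 24.4 and 32.4 CPM, against 17.3, 23.3 and 45.5 CPM with the casein control (log2 fold change -0.23, SE 0.28, edgeR adjusted p = 0.717). The averaged change lay just outside the threshold (log2 fold change -0.64, SE 0.20, edgeR adjusted p = 0.0509).

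Those calls of Loxl2 turned on the setting. On elemental amino acids it passed with DESeq2 (0.0225) and by edgeR without elemental control 1 (0.0402). In the average it passed with DESeq2 (0.0202), with a stricter filter (0.0493), and in 8 of the 24 fits that leave out 1 library, at adjusted p between 0.029 and 0.0481. Those left out elemental MR 2, elemental control 1, 3 or 4, oxidized casein MR 2, or casein control 2, 3 or 6. Loxl2 also passed in the average by edgeR with lymph node presence (adjusted p = 9.44e-05) or B cell level (0.000124) as a term. Within libraries without lymph node, which hold a single elemental MR mouse, its averaged log2 fold change was -0.91. Over all alternatives the averaged adjusted p ran from 9.44e-05 to 0.105.

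Loxl2 was lower in libraries with lymph node, with a log2 difference of -0.89 (SE 0.11). Within them it had 12.7 to 18.8 CPM in 5 elemental MR mice and 20.9 to 31.4 CPM in 4 elemental controls. With lymph node presence in the model Loxl2 fell on elemental amino acids, with a log2 fold change of -0.81 (SE 0.14, edgeR adjusted p = 0.00559), and on casein, with -0.46 (SE 0.14, edgeR adjusted p = 0.047), with adjusted p over the alternatives from 0.00483 to 0.376 and from 0.047 to 0.953.

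Lox, the founding enzyme of the family, had 34.7, 45.4 and 73.4 CPM on elemental MR, against 39.6, 56.6 and 80.1 CPM on the elemental control (log2 fold change -0.27, SE 0.27, edgeR adjusted p = 0.857). Loxl1, the elastin-associated enzyme, had 20.2, 30.4 and 33.7 CPM on elemental MR, against 21.6, 30.8 and 50.6 CPM on the elemental control (log2 fold change -0.22, SE 0.26, edgeR adjusted p = 0.897). Loxl3 had 2.88, 4.00 and 5.36 CPM on elemental MR, against 3.63, 5.54 and 7.16 CPM on the elemental control (log2 fold change -0.47, SE 0.23, edgeR adjusted p = 0.498). The groups overlapped for all 3 of these genes. Exons of Loxl3 overlap those of Htra2 on the other strand, and Htra2 had 9037 reads over all libraries where Loxl3 had 1689. Loxl4, at a mean of 0.518 CPM, had no reads in some libraries, and its change was imprecise (log2 fold change 0.55, SE 0.84). On casein Lox, Loxl1, Loxl3 and Loxl4 had log2 fold changes of -0.22, 0.17, -0.09 and 0.26, each within its SE.

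**Figure D4:**
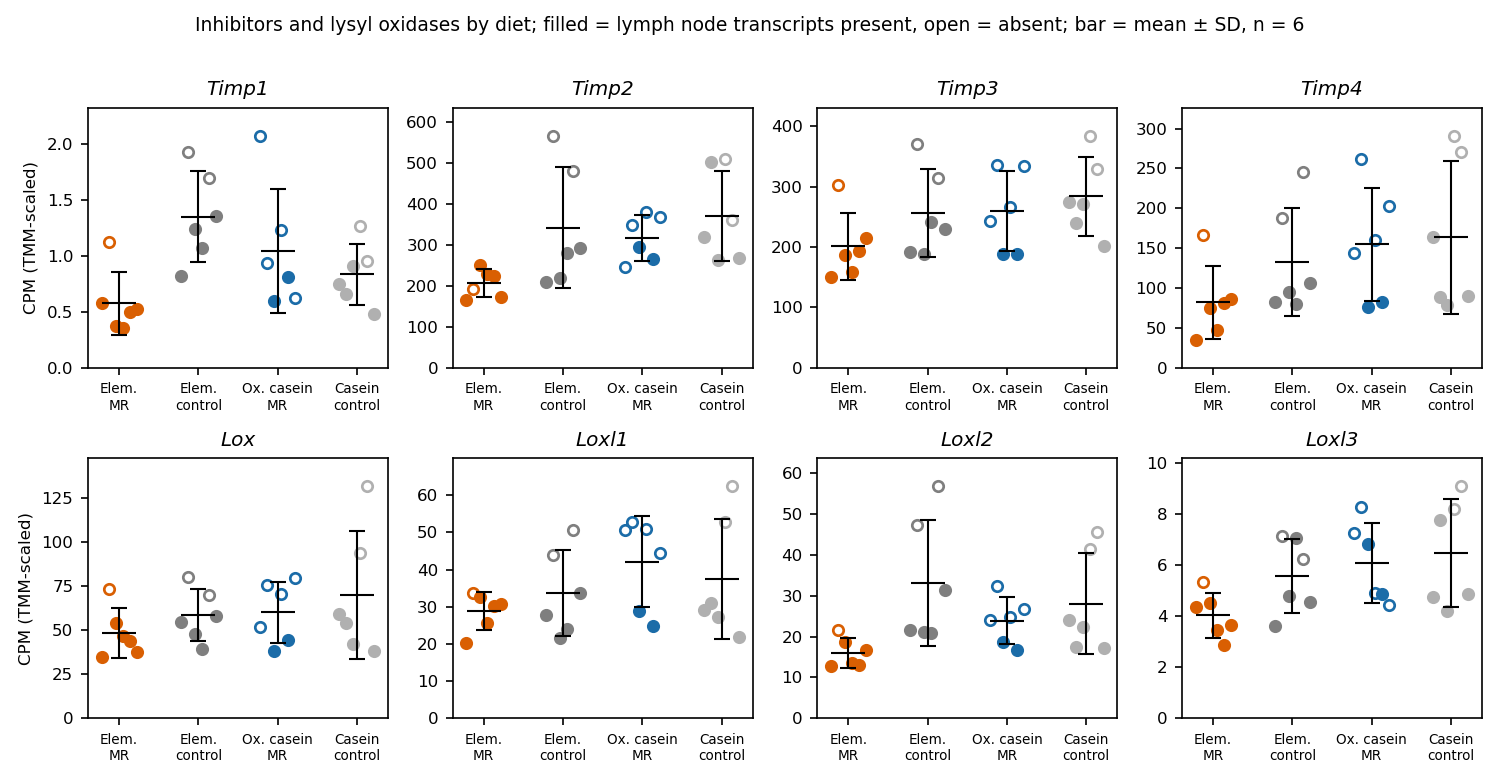
Level of the 4 Timps and of Lox, Loxl1, Loxl2 and Loxl3 in each mouse by diet (CPM, linear axes from 0, bars are mean ± SD of 6 mice), filled where lymph node transcripts were present. For Timp1 and Loxl2, 5 of 6 elemental MR mice lie below every elemental control, and for Timp2 3 of 6 do.

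Lymph node presence itself went with large differences in these genes. Beside diet in the model, 34 of 49 differed between libraries with and without lymph node, where 45.8% of all genes did. With lymph node 30 (61.2%) were lower and 4 higher, where 22.9% of all genes were lower and 22.9% higher. All 4 Timps and all 5 lysyl oxidases were among the 30. The 4 that were higher were Adam8 (log2 difference 1.25, SE 0.28), a leukocyte protease, Adam11 (log2 difference 1.46, SE 0.27), Adam19 (log2 difference 0.51, SE 0.10) and Adam17 (log2 difference 0.36, SE 0.09). Adam10, Adam12, Adam22 and Adamts10 did not pass. Timp4 had a log2 difference of -1.32 (SE 0.15) and Lox of -0.84 (SE 0.11). As the presence of lymph node was read from the same libraries, these are descriptions of their composition.

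With that term in the model more genes of the set passed for restriction. On elemental amino acids 3 of 49 did (Adam12 rose, Adamts5 and Loxl2 fell), beside 1.09% of all genes (0.685% higher and 0.409% lower). On casein 6 of 49 did (Adam12 rose, and Adam22, Adamts10, Adamts2, Adamts5 and Loxl2 fell), beside 7.38% (4.54% higher and 2.84% lower). In the average 14 of 49 did, beside 12.8% of all genes: Adam12 rose and 13 fell (26.5%), where 6.96% of all genes rose and 5.82% fell.

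The 13 were Adamts5, Adamts2, Adamts10, Adamtsl4, Adam15, Adam19, Adam22, Mmp2, Mmp23, Timp2, Timp3, Timp4 and Loxl2. The log2 fold change of Timp2 was -0.47 (SE 0.13, edgeR adjusted p = 0.0164), that of Timp3 -0.29 (SE 0.08) and that of Timp4 -0.47 (SE 0.14), and the adjusted p of Timp2 ran from 0.0164 to 0.412 over the alternatives. Mmp2 had -0.57 (SE 0.17) and Adamts2 -0.64 (SE 0.14) on the same scale. By edgeR with diet alone and all libraries, Adam19, Adamts10 and Adamts5 of these 13 passed, and DESeq2 with diet alone also called Adam22, Loxl2 and Timp2. Adipose progenitor and fibroblast markers, some of them matrix genes themselves, fell in the same model for 6 of 10, with a median of -0.51. Their part in the lower levels was not tested.

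**Figure D5:**
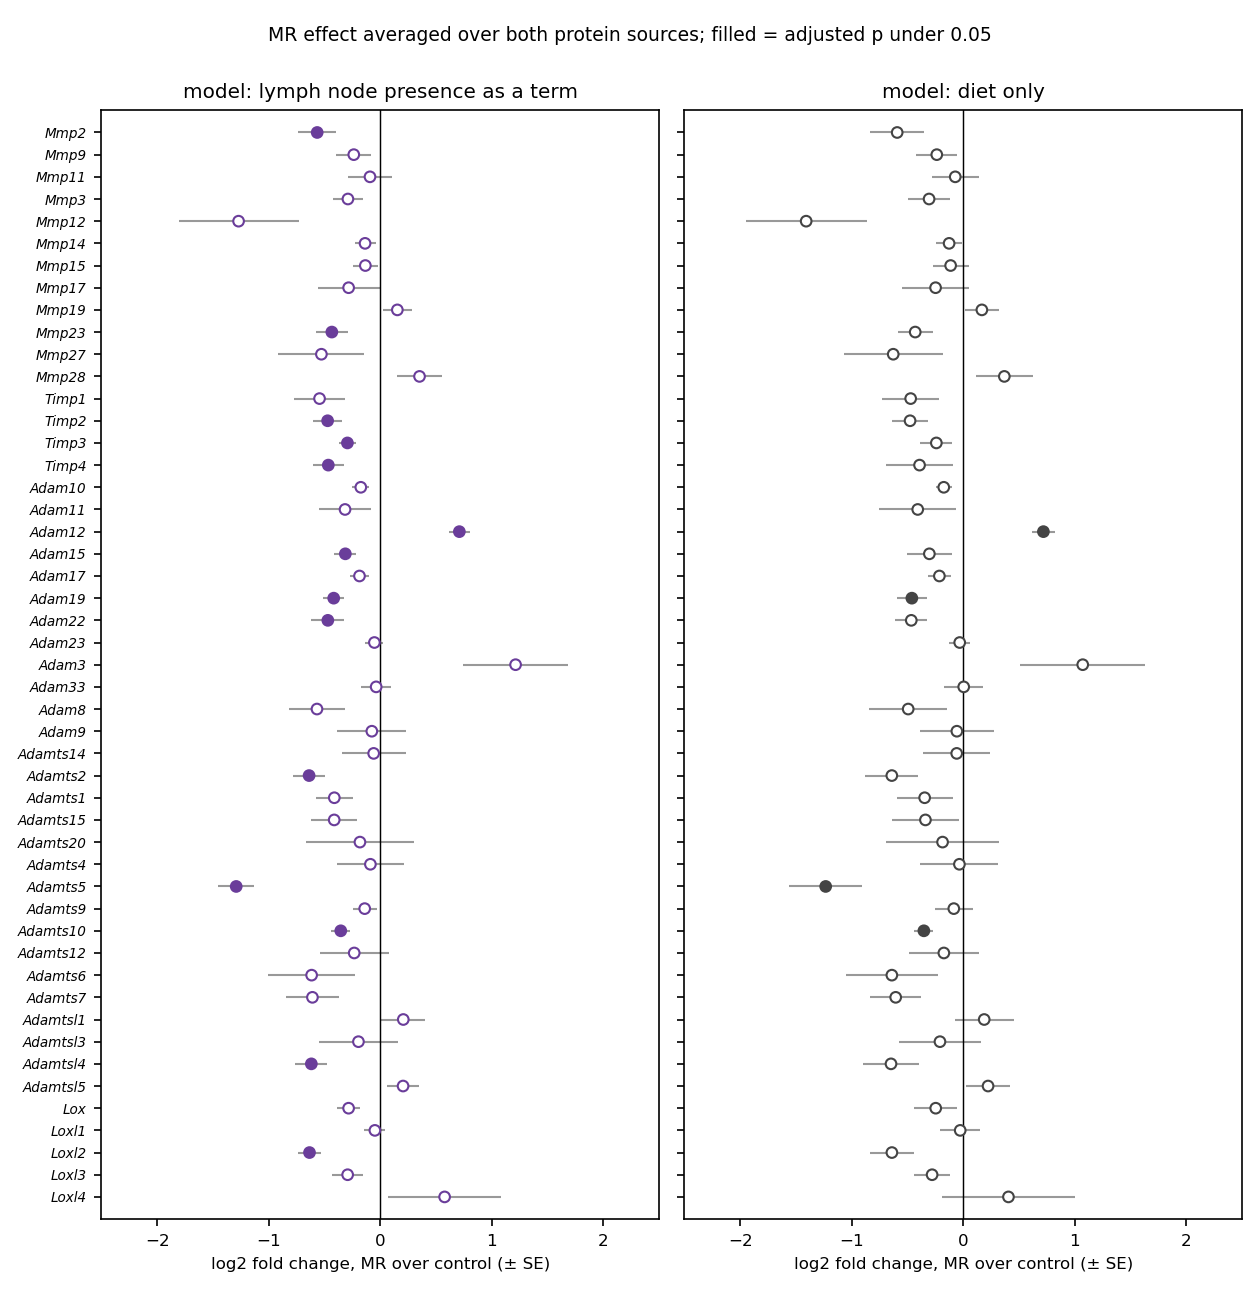
Log2 fold change of MR over control averaged over both protein sources for the 49 tested genes, with lymph node presence in the model (left) and diet only (right), bars of 1 SE, filled for an edgeR adjusted p under 0.05. On the left 14 points are filled, and on the right 4.

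Other matrix genes were set beside these. Of the listed substrates, processing enzymes and further proteases and inhibitors, 80 were in the deposited tables and 78 were tested. On each protein source 1 of them passed, beside 0.244% of all genes on elemental amino acids and 3.82% on casein. It was Bsg, which encodes basigin, a membrane glycoprotein known as an inducer of Mmp production and a partner of lactate transporters. Bsg averaged 195 ± 29.7 CPM on elemental MR and 124 ± 12.6 CPM on the elemental control (log2 fold change 0.66, SE 0.13, edgeR adjusted p = 0.0211), and 150.5 ± 13.7 CPM on oxidized casein MR and 102 ± 19.8 CPM on the casein control (log2 fold change 0.55, SE 0.13, edgeR adjusted p = 0.0122). Errors are SD over 6 mice.

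In the average Bsg rose and 4 genes of the 78 fell, beside 5.23% and 1.76% of all genes. Vcan, the proteoglycan versican that Adamts5 cuts, averaged 4.44 ± 1.09 CPM on elemental MR and 9.37 ± 4.597 CPM on the elemental control, and 6.02 ± 1.75 CPM on oxidized casein MR and 8.36 ± 4.03 CPM on the casein control (log2 fold change -0.77, SE 0.23, edgeR adjusted p = 0.0376). Serpine2, an inhibitor of thrombin and urokinase, fell (log2 fold change -1.05, SE 0.23, edgeR adjusted p = 0.00467), as did the fibrillar collagens Col3a1 (log2 fold change -0.83, SE 0.24, edgeR adjusted p = 0.0354) and Col5a1 (log2 fold change -0.79, SE 0.23, edgeR adjusted p = 0.0398). The median log2 fold change of the 78 was -0.49 on elemental amino acids, -0.22 on casein and -0.32 in the average, beside -0.23, -0.14 and -0.25 for the 49 genes described here. In the model with lymph node presence, 1 of 78 rose and 35 fell in the average, beside 6.96% and 5.82% of all genes.

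The protein source alone moved no gene of the set past the threshold. With casein control against elemental control, edgeR, DESeq2 and limma voom each called 0 of the set, beside 0.659% of all genes by edgeR, and 2 had an unadjusted p under 0.05 (4.08%, beside 12.6% of all genes). Those were Adamts10 (log2 fold change 0.38, SE 0.12, edgeR adjusted p = 0.143) and Adam22 (log2 fold change 0.57, SE 0.20, edgeR adjusted p = 0.211), both higher on casein, where 3.03% of all genes were. Without elemental control 2, 1 of 49 passed, Adam22.

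For casein control against elemental control with lymph node presence as a term, edgeR again called 0, beside 2.06% of all genes. An unadjusted p under 0.05 was then found for 7 of 49 (14.3%, beside 16.9%), 4 higher and 3 lower on casein, beside 6.21% and 10.7%.

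With oxidized casein MR against elemental MR, the same 3 tests again called 0, beside 0% of all genes by edgeR, and 9 had an unadjusted p under 0.05 (18.4%, beside 6.98% of all genes), 8 of them higher on oxidized casein and 1 lower, beside 3.85% and 3.14%. Adam12 was the gene that was lower, and its 6 oxidized casein MR mice all lay below the 6 elemental MR mice, a separation downward that 0.204% of all genes showed (log2 fold change -0.48, SE 0.14, edgeR adjusted p = 0.636). Mmp14 (log2 fold change 0.50, SE 0.16, edgeR adjusted p = 0.636) and Timp2 (log2 fold change 0.62, SE 0.23, edgeR adjusted p = 0.658) were among the 8 higher. With lymph node presence in the model, which these groups hold in 2 and 5 libraries, 4 of 49 had an unadjusted p under 0.05, beside 6.96% of all genes, and edgeR called 0. Of the 4, 2 were higher and 2 lower, beside 3.13% and 3.84% of all genes.

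For the difference between the restriction effects, edgeR, DESeq2 and limma voom called 0 of the set, and 0% of all genes by edgeR. An unadjusted p under 0.05 was found for 3 of 49 (6.12%, beside 3.33% of all genes): Timp1, Mmp9 (log2 fold change 0.76, SE 0.37, edgeR adjusted p = 0.91) and Adamts10. Adam12, whose rise was 0.85 on elemental amino acids and 0.58 on casein, differed by -0.27 (casein minus elemental, SE 0.20, edgeR adjusted p = 0.91). A difference that misses the threshold does not show that the effects are equal.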

How the data were processed

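Levels came from 3′ mRNA sequencing (QuantSeq, 50 bp forward reads, per the labels' protocols). The authors deposited a table of raw counts per Ensembl gene and a table of normalized signal, whose values equal the counts divided by a size factor per library. GRCm38, mm10, DESeq2 1.18.1 and R 3.4.3 appear in the submitters' processing notes. No aligner, counter or strand option is named in the sources used here. Genes were matched by the symbol in the deposited table. It was blank for 2718 rows, of which 2668 were named from the GENCODE M21 annotation, which added 0 genes to the set. The members and gene lists were chosen with earlier results of these data known.

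The test of the deposited counts was that of edgeR 4.0.16 in R 4.3.3 (filterByExpr, TMM scaling, 1 model with a mean per diet over 24 libraries, robust quasi-likelihood F tests, 2-sided). The Benjamini-Hochberg adjustment ran over 15176 genes, with a threshold of 0.05. The 1645 genes below the filter were not tested. Each SE is the log2 fold change divided by the square root of F. Library totals ran from 7468336 to 19868913 reads before scaling, CPM are reads over the TMM-scaled totals, and marker levels are mean log2 CPM with a prior count of 2. Reads carry no molecular identifiers, so precision comes from the spread between mice, numbered here in accession order.

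Named genes are those past the threshold in any of 6 comparisons, the 5 with the smallest p for each restriction effect, the 12 highest in level, all Timps and all lysyl oxidases. Further genes are named within counts or as background, with values seen. Lymph node presence is a B cell marker mean above 4 log2 CPM. Alternatives were RLE scaling, DESeq2 1.42.0, limma voom (limma 3.58.1), other filters, lymph node terms and strata, no muscle-rich libraries, only the compared libraries, and leaving out each library. Coordinates are those of GENCODE M21 (GRCm38) and promoters those of RefSeq.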

Additional observations from a re-analysis of the deposited data

Results flagged for a closer look

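The 21 named genes in each of the 4 diets gave 84 groups of 6 values, drawn from the same 24 libraries. In 7 of them a value stood apart from the others of its diet by more than Dixon's 95% limit allows. For independent groups of normally distributed values, chance gives about 1 such flag in 20. These groups share libraries and were read on linear CPM, so that rate need not hold here. Elemental MR replicate 2, which had no lymph node transcripts and held skeletal muscle transcripts, stood high for Adamts5, at 131.5 CPM with the next mouse at 59.4, and for Timp1, at 1.124 CPM with the next at 0.580. Elemental MR replicate 3 stood high for Mmp14, at 87.43 CPM with the next at 63.0, and for Mmp2, at 34.49 CPM with the next at 19.1. Adam22 was high in elemental control replicate 2, at 4.062 CPM with the next at 2.58. Adam17 was high in casein control replicate 6, at 59.96 CPM with the next at 46.0, and Mmp19 in casein control replicate 5, at 80.55 CPM with the next at 47.2.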

How the results depend on the processing

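Counts of genes called for MR on elemental amino acids (1) were 3 with DESeq2, with lymph node presence or with B cell level as a term, 0 in libraries with or without lymph node alone and 0 without the muscle-rich libraries. For MR on casein (2) they were 6 and 5 with the lymph node presence and B cell terms, and 0 in libraries with lymph node alone or in the 12 casein libraries. For the average (4) they were 7 with DESeq2, 14 with either term, 7 in libraries without lymph node and 2 in those with it. Leaving out 1 library gave 1 to 3 on elemental amino acids (3 without elemental control 1), 1 to 4 on casein (4 without oxidized casein MR 3, 1 without casein control 1 or 6), 2 to 7 in the average (2 without elemental MR 4, 7 without elemental control 1 or 3), and 0 to 1 between controls (1 without elemental control 2). The strata hold few libraries, so their tests have fewer degrees of freedom, and the cause of the other changes was not tested. Among single-gene fits under the other alternatives, 235 kept direction and side of the threshold, 32 newly passed, 14 no longer passed and 3 turned. Those were Adam22 on elemental amino acids (log2 fold change 0.055), Mmp23 on casein (0.0776) and Timp1 on casein (-0.0045), all in libraries with lymph node alone. Leaving out 1 library gave Timp1 on casein -0.0163 (without oxidized casein MR 1) to 0.4405, kept 607 other fits as they were, and made 27 newly pass and 13 no longer pass. No scaling moved the median of all genes by 0.1. No paired analysis was possible because the labels give no replicate numbers shared between diets. Genes below 1 CPM, 17 of 58, rest on few reads.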
